A study of Homo sapiens with 6 samples.

Results

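The inhibitor of DNA binding (ID) genes ID1, ID2, ID3 and ID4 were examined together with SMAD6, SMAD7, SMAD9, BAMBI and BMP4, which act within the bone morphogenetic protein (BMP) pathway or feed back on it. These 9 genes were chosen by name, with their differences between imetelstat and vehicle already known, above all those of ID2 and ID3 in OVCAR5 cells. They carried 13 named probes among the 47231 on the array, and 11 of these were detected on at least 1 array, at a detection p below 0.01 against the negative control beads. Of the 9 genes 8 had a detected probe, out of 12187 such genes in all, and ID4 had none. RNA was measured on Illumina HumanHT-12 V4.0 BeadChips, which read the brightness of beads that carry gene probes. Cells were grown for 2 weeks with imetelstat, a lipid-linked oligonucleotide that binds the RNA template of telomerase and blocks the enzyme, or with vehicle. The groups were HCT116 cells with imetelstat and with vehicle, COLO205 cells with imetelstat and with vehicle, and OVCAR5 cells with imetelstat and with vehicle, 1 array each. HCT116 and COLO205 are established colon cancer lines, and OVCAR5 is an established line catalogued as ovarian cancer. The labels call the control agent vehicle, while the methods speak of a mismatch oligonucleotide and the account of the arrays of untreated cells, and the sources do not settle which was used.

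BMPs are secreted ligands that bind paired serine/threonine kinase receptors, which phosphorylate SMAD1, SMAD5 and SMAD9, and these enter the nucleus with SMAD4 and switch on target genes. The ID genes are the best known direct targets, and their proteins bind E-proteins such as TCF3 and keep them from pairing with tissue-specific basic helix-loop-helix factors on DNA, which holds back differentiation. SMAD6, SMAD7 and BAMBI are targets too and dampen the signal that induces them. In the intestine BMP signalling is known for opposing stem cell self-renewal along the crypt axis.

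SMAD proteins bind the letters GTCT and, on the other strand, AGAC. SMAD1 and SMAD5 with SMAD4 also bind GGCGCC. The 250 bases before the RefSeq transcription start are shown, in the GRCh38.p14 build and 5′ to 3′ on the strand of the gene, for the ID genes with detected signal, the inhibitory SMAD6 and the pseudoreceptor BAMBI, so that the targets described here can be set side by side. Capitals mark every match of these letters. The windows are chr20:31605039-31605288 on the plus strand for ID1, chr2:8681806-8682055 on the plus strand for ID2, chr1:23559502-23559751 on the minus strand for ID3, chr15:66701986-66702235 on the plus strand for SMAD6 and chr10:28677271-28677520 on the plus strand for BAMBI.
ID1: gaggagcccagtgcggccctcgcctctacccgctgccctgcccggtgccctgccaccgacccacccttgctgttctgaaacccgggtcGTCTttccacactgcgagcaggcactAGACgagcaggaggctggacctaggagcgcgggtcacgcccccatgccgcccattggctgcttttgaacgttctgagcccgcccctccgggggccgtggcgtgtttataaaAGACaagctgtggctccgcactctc
ID2: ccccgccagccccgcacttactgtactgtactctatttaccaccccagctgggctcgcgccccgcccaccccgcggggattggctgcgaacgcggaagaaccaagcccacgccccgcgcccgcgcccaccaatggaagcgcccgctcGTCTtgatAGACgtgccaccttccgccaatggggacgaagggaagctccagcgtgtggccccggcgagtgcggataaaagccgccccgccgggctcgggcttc
ID3: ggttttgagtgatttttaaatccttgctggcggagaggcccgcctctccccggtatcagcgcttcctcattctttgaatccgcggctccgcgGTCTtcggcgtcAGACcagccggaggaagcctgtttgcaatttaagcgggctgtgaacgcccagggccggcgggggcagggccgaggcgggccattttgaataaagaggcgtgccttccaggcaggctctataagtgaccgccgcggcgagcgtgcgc
SMAD6: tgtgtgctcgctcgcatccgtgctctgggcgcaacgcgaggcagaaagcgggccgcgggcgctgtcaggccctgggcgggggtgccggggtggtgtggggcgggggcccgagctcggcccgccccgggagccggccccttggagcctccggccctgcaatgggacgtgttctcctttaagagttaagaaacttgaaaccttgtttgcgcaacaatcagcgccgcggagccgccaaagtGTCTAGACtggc
BAMBI: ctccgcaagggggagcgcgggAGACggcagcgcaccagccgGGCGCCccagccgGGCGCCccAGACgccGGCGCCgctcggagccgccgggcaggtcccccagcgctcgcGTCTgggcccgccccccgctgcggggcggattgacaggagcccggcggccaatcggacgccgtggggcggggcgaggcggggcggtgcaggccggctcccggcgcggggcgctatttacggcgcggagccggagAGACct

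The number and spacing of the matches differed among the 3 ID genes. The ID2 window held GTCT and AGAC with 4 bases between them, starting 103 and 95 bases before the start. The ID3 window held the same pair of letters with 8 bases between them, starting at -158 and -146. ID1 held 3 matches, at -162, -136 and -25. SMAD6 alone among the listed genes had GTCT and AGAC joined as GTCTAGAC, 12 bases before its start, a string found on either strand in 0.182% of 35114 RefSeq windows of that length. BAMBI held 3 matches of GGCGCC and 4 of the shorter letters. Either of the shorter strings was found in 12 of the 13 windows of the 9 genes and in 77.5% of all windows, and GGCGCC in 2 of the 13 and in 16.4% of all windows. These are matches of letters and not measured binding.

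The arrays were set on a common scale by quantile normalization of log2 signals. The array means before scaling lay between 453.8 and 487.5, except for the COLO205 imetelstat array at 359.8, against 458.6 with vehicle in that line. Between 15627 and 17276 probes were detected per array. Arrays labelled HCT116 and COLO205 stood close together, with Pearson's r of 0.976 to 0.987 over detected probes, which are not independent. Pairs of either with an OVCAR5 array had 0.886 to 0.893. Within HCT116 r was 0.987, within COLO205 0.987 and within OVCAR5 0.989. Pairs between HCT116 and COLO205 had 75 to 230 genes at least 2-fold apart, against 91 within HCT116, 31 within COLO205 and 63 within OVCAR5. The pair with 75 was HCT116 with imetelstat and COLO205 with vehicle. Of 12 colon epithelial markers CEACAM5, CEACAM6, KRT20 and CDH17 were detected on both OVCAR5 arrays and on no array labelled HCT116 or COLO205. CDX2, EPCAM, KRT8 and KRT18 were detected on all 6. VIL1 and LGALS4 were detected on the OVCAR5 vehicle array alone, and CDX1 and GPA33 on no array. COLO205 is used below as the label gives it. Whether these arrays hold cells distinct from HCT116 was not tested, so the 2 count as separate lines by label only. Of the 8 ovarian markers WFDC2 was detected on both OVCAR5 arrays and on no other, and MSLN on all 6 arrays. MUC16 was detected on both OVCAR5 arrays and 1 COLO205 array, and PAX8 on 1 OVCAR5 array and 3 of the others. EMX2 was detected on the COLO205 imetelstat array alone, and WT1, SOX17 and ESR1 on none. With 1 array per line and agent there is no spread within a line, so differences with imetelstat are given as sizes with no test.

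In OVCAR5 cells ID3 and ID2 had among the lowest imetelstat-to-vehicle ratios on the array, and ID1 followed at a smaller size. In HCT116 and COLO205 cells the same 3 genes differed by less than 2-fold. ID2 ran the other way in HCT116, while its sign in COLO205 depended on the probe. In OVCAR5 cells a signal lower by 2-fold or more with imetelstat was seen in 2 of the 8 detected genes, ID2 and ID3, beside 0.342% of all genes in that line. With normexp background correction BMP4 joined them, which made 3. In HCT116 cells the count was 0 of 8, beside 0.736% of all genes, and in COLO205 cells 0 of 7, beside 0.163%. No gene of the 8 was at least 2-fold higher with imetelstat in any line, beside 0.0908% of all genes in HCT116, 0.134% in COLO205 and 0.256% in OVCAR5. The OVCAR5 count includes the values that led to the choice of the genes and carries no test. In RNA of a whole culture, fewer cells that express a gene and less RNA per cell cannot be told apart.

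**Figure D1:**
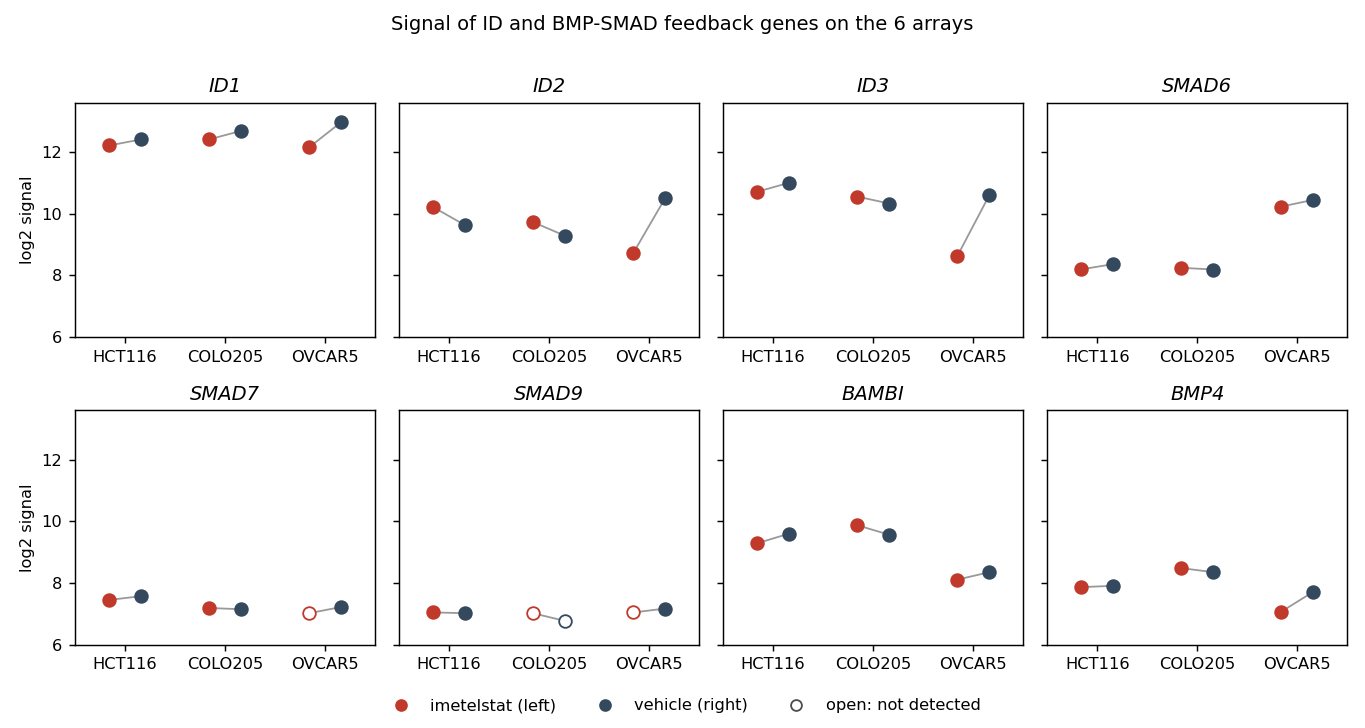
Log2 signal (y axis) of the 8 detected genes on each array, by cell line (x axis), with imetelstat to the left in red and vehicle to the right in blue, and open circles where the probe was not detected. The steepest lines are those of ID2 and ID3 in OVCAR5, where ID3 had 8.63 with imetelstat and 10.61 with vehicle.

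ID3, a small helix-loop-helix protein without a DNA-binding region, had log2 signals of 8.63 with imetelstat and 10.61 with vehicle in OVCAR5 cells. Before normalization these were bead signals of 403.3 and 1695. In HCT116 cells ID3 had 10.71 with imetelstat and 11.01 with vehicle. In COLO205 cells it had 10.56 with imetelstat and 10.33 with vehicle. The OVCAR5 imetelstat array thus stood below the other 5, which lay within 0.68 of each other. The log2 difference, imetelstat minus vehicle, was -1.98 in OVCAR5, where the imetelstat signal was 25.4% of that with vehicle, -0.30 in HCT116 and 0.22 in COLO205. It was the second lowest of 10538 genes in OVCAR5.

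ID2, which also binds the retinoblastoma protein, had 8.72 with imetelstat and 10.52 with vehicle in OVCAR5 cells, and bead signals of 433.9 and 1588. In HCT116 cells it had 10.22 with imetelstat and 9.62 with vehicle. In COLO205 cells it had 9.73 with imetelstat and 9.28 with vehicle. Among the 6 arrays the OVCAR5 vehicle array was the highest for ID2 and the OVCAR5 imetelstat array the lowest. The log2 difference was -1.79 in OVCAR5, with an imetelstat signal at 28.9% of vehicle, 0.59 in HCT116 and 0.44 in COLO205. The OVCAR5 value ranked 3 from the lowest among 10538 genes, and the HCT116 value 136 from the highest among 11010. A further detected probe of ID2 gave -1.44 in OVCAR5, 0.57 in HCT116 and -0.07 in COLO205. Both probes thus gave the same sign in OVCAR5 and HCT116, and the COLO205 sign depended on the probe. The COLO205 size also depended on the scaling, at 0.09 for the brighter probe with median scaling and 0.04 with no scaling.

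ID1, whose gene is often used as a readout of BMP receptor activity, had 12.16 with imetelstat and 12.98 with vehicle in OVCAR5 cells. In HCT116 cells it had 12.22 with imetelstat and 12.41 with vehicle. In COLO205 cells the brighter ID1 probe had 12.41 with imetelstat and 12.69 with vehicle. On this scale ID1 was the only one of the 8 genes that was lower with imetelstat in each of the 3 lines, although SMAD6, SMAD7, BAMBI, BMP4 and ID3 were too where arrays were scaled by the median or not scaled. Its differences were -0.82 in OVCAR5, -0.20 in HCT116 and -0.28 in COLO205, where it was -0.74 with median scaling and -0.78 with no scaling. In OVCAR5 0.522% of genes had a difference as low or lower. The dimmer ID1 probe gave -0.69 in OVCAR5, -0.11 in HCT116 and -0.41 in COLO205, the same sign throughout. ID4, the remaining ID gene, has 1 probe, which was detected on no array, with log2 signals of 6.40 to 6.63 that leave no level or ratio to report.

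**Figure D2:**
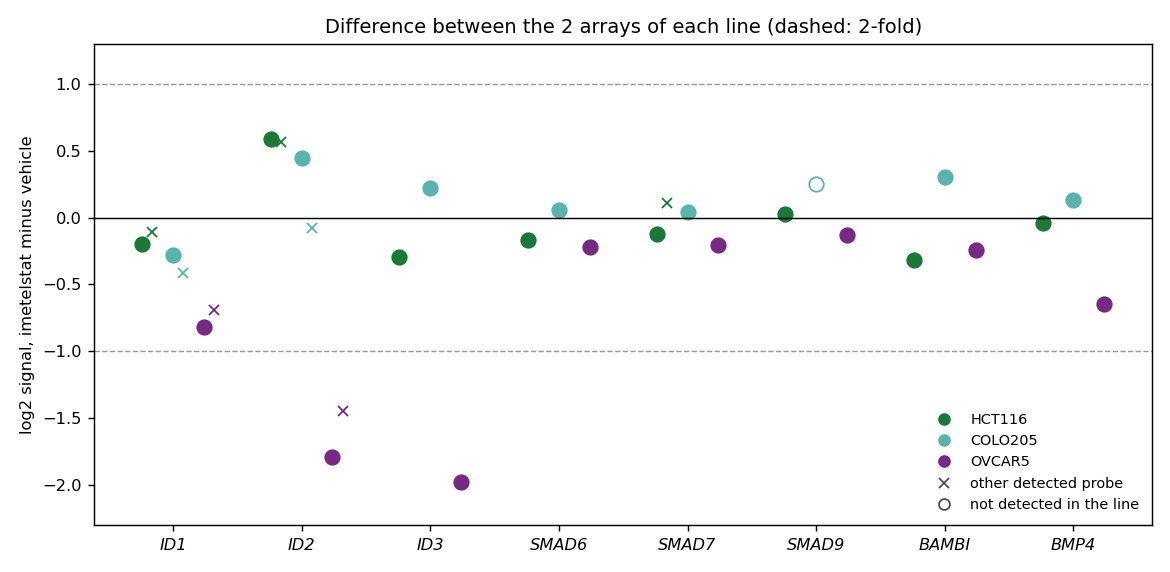
Log2 difference between the imetelstat and the vehicle array (y axis) for each gene (x axis) in HCT116, COLO205 and OVCAR5, with crosses for a further detected probe and an open circle where neither array of the line detected the gene. Every OVCAR5 point is below 0, with ID3 at -1.98 and ID2 at -1.79 beyond the dashed 2-fold line.

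The feedback inhibitors differed less between agents than ID2 and ID3 did in OVCAR5. The ID2 and ID3 differences were known when the genes were chosen, so this carries no test. SMAD6, which competes with SMAD4 for activated SMAD1 and blocks BMP receptors, had 10.23 with imetelstat and 10.45 with vehicle in OVCAR5 cells, a difference of -0.22. SMAD6 had 8.19 with imetelstat and 8.37 with vehicle in HCT116 cells, and 8.25 with imetelstat and 8.19 with vehicle in COLO205 cells. BAMBI, a transmembrane pseudoreceptor without a kinase that blocks BMP and TGF-beta receptors, had 8.11 with imetelstat and 8.35 with vehicle in OVCAR5 cells, a difference of -0.24. For BAMBI the difference was -0.32 in HCT116 cells, with 9.29 under imetelstat and 9.60 under vehicle, and 0.31 in COLO205 cells, with 9.87 and 9.56. For SMAD6 and BAMBI the gap between OVCAR5 and the other lines was wider than any gap between agents.

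SMAD7, which recruits ubiquitin ligases to TGF-beta and BMP receptors, was dim throughout. In OVCAR5 cells SMAD7 had 7.02 with imetelstat, where it was not detected, and 7.22 with vehicle, which is at least 1.12-fold lower with imetelstat, taking the lowest detected signal of that array as the floor. It had 7.45 with imetelstat and 7.57 with vehicle in HCT116 cells, and 7.19 with imetelstat and 7.14 with vehicle in COLO205 cells. Another SMAD7 probe was detected on the HCT116 imetelstat array alone and gave a difference of 0.11 there, opposite in sign to the -0.12 of the brighter probe. SMAD9, a receptor-regulated SMAD whose transcription BMP also raises, was detected on 3 arrays, both of HCT116 and the OVCAR5 vehicle array. SMAD9 had 7.04 with imetelstat and 7.02 with vehicle in HCT116 cells. In OVCAR5 cells it was at least 1.08-fold lower with imetelstat, with 7.04 against 7.17 with vehicle, and no COLO205 array detected it. These 2 dim genes therefore say little in either direction.

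BMP4, the ligand of the group, had 7.07 with imetelstat and 7.72 with vehicle in OVCAR5 cells, so that the imetelstat signal was 63.8% of that with vehicle. It had 7.86 with imetelstat and 7.91 with vehicle in HCT116 cells, and 8.48 with imetelstat and 8.35 with vehicle in COLO205 cells. The log2 difference of BMP4 was -0.65 in OVCAR5, -0.04 in HCT116 and 0.13 in COLO205. In OVCAR5 1.04% of genes had a difference as low or lower. The BMP4 signal on the OVCAR5 imetelstat array lay close to the lowest detected signal there, 7.05, and with background correction by normexp its difference was -1.39.

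Over the 8 genes the median log2 difference was -0.44 in OVCAR5, -0.15 in HCT116 and 0.13 over the 7 genes measured in COLO205, beside medians of -0.01, 0.01 and -0.01 over all genes of those lines. At a limit of 1.5-fold 4 of 8 genes were lower with imetelstat in OVCAR5, ID1, ID2, ID3 and BMP4, beside 1.36% of all genes, and none was higher, beside 1.48%. ID2 was the 1 gene higher at that limit in HCT116, beside 1.3%, and none was lower, beside 2.11%. In COLO205 none was lower, beside 2.02%, and none higher, beside 1.87%. In OVCAR5 all 8 had a difference below 0, beside 50.8% of all genes, though SMAD7 was at 0.02 when its probes were averaged. In HCT116 6 of 8 had one, beside 49%, and the exceptions were ID2 and SMAD9. In COLO205 1 of 7 had one, ID1, beside 51.1%. The COLO205 count rested on the scaling of its dimmer imetelstat array. It was 6 of 7 when arrays were scaled to a common median or not scaled, where the median of all COLO205 genes was itself -0.26 or -0.31 and ID3, SMAD6, SMAD7, BAMBI and BMP4 joined ID1 below 0.

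**Figure D3:**
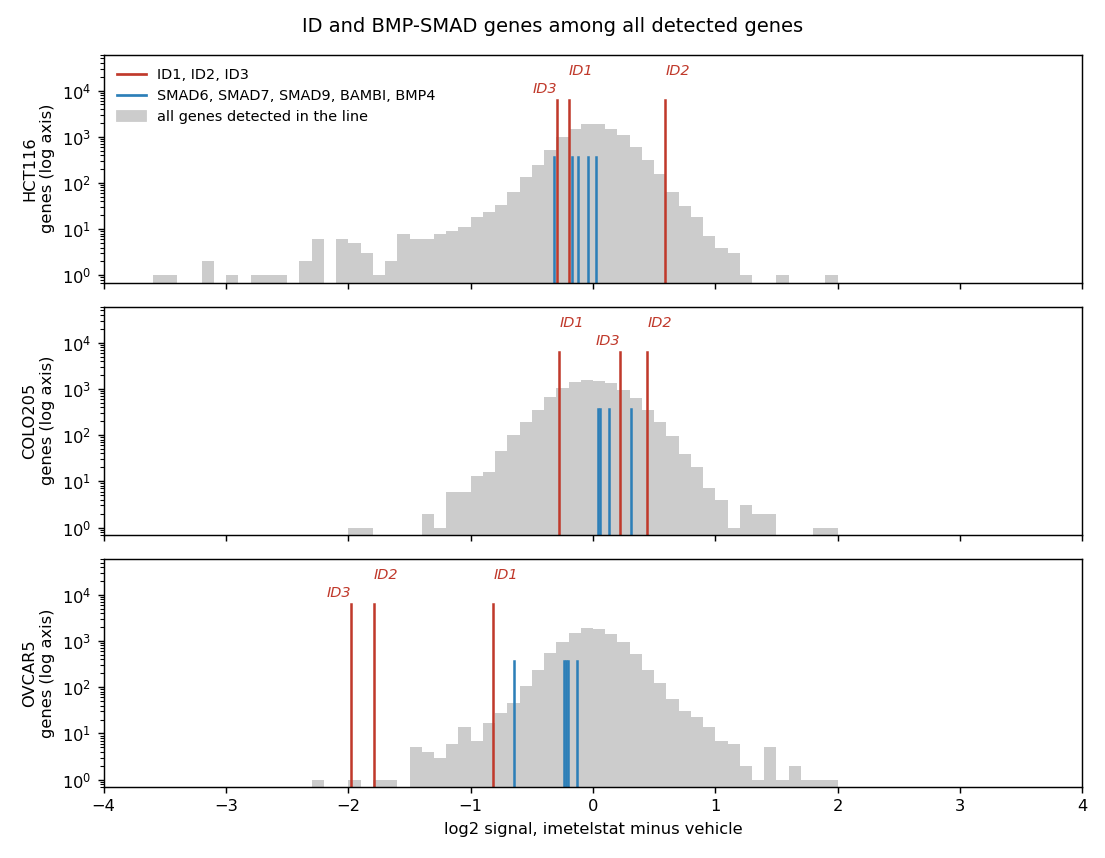
Number of detected genes (y axis, log scale) by log2 difference between the imetelstat and the vehicle array (x axis) in each line, with red lines for ID1, ID2 and ID3 and shorter blue lines for SMAD6, SMAD7, SMAD9, BAMBI and BMP4. In OVCAR5 ID3 and ID2 lie in the far left tail, while in HCT116 and COLO205 the ID genes lie within 0.59 of 0.

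Over the HCT116 and COLO205 pairs the mean log2 difference was 0.52 for ID2, -0.04 for ID3 and -0.24 for ID1. Both lines gave ID2 a value above 0 with its brighter probe, though COLO205 was at -0.07 with the other. ID3 had opposite signs in these lines on this scale and the same sign where arrays were scaled by the median or not scaled. These differences were known when the genes were chosen, and no test is drawn from them. Across all 3 lines 0 of 12187 genes passed a Benjamini-Hochberg adjusted p of 0.05 in limma with the line as a block, and 329 had an unadjusted p below 0.05, or 2.7%.

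The level of the genes between cell lines was not itself used in choosing them. The OVCAR5 means of ID2 and ID3, however, include the array values behind their choice, so for these genes the level is not independent of it. OVCAR5 was set against the mean of HCT116 and COLO205 in a limma fit of all 6 arrays with line and agent as terms. The labels give 1 array per line and agent. The p-values therefore rest on how far the imetelstat difference varies between the lines in these arrays alone, pooled in part over genes. They do not measure a spread between cultures of a line. SMAD6 was higher in OVCAR5, with a line mean of 10.34 in OVCAR5, 8.28 in HCT116 and 8.22 in COLO205. This log2 difference of 2.09 (SE 0.13), or 4.27-fold, had an adjusted p of 7.03e-07 in limma. All 4 arrays labelled colon were between 8.19 and 8.37, and both OVCAR5 arrays were above 10.2. BAMBI was lower in OVCAR5, with a line mean of 8.23 in OVCAR5, 9.45 in HCT116 and 9.72 in COLO205. This was a log2 difference of -1.35 (SE 0.16), with an adjusted p of 5.04e-05 in limma. The 2 inhibitors thus stood in opposite order between the lines, and neither set of arrays overlapped for either gene. SMAD6 and BAMBI passed in each of 18 alternatives.

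BMP4 and ID3 were also lower in OVCAR5 in this fit, but neither call held without the OVCAR5 imetelstat array. BMP4 had a line mean of 7.39 in OVCAR5, 7.88 in HCT116 and 8.41 in COLO205, a log2 difference of -0.76 (SE 0.17) with an adjusted p of 0.00367 in limma. Without the OVCAR5 imetelstat array it was -0.41, with an adjusted p of 0.159 in limma. ID3 had a line mean of 9.62 in OVCAR5, 10.86 in HCT116 and 10.44 in COLO205, a log2 difference of -1.04 (SE 0.33) with an adjusted p of 0.0264 in limma. The low value of the OVCAR5 imetelstat array that led to the choice of ID3 enters this mean, so the ID3 p-value is not an independent test. Without that array the ID3 difference was -0.06, with an adjusted p of 0.869 in limma. The ID3 call was also lost in 7 other alternatives, at differences of -1.18 to -0.69 and limma adjusted p of 0.0527 to 0.0789. With vehicle, then, ID3 levels in OVCAR5 and the other lines lay close together, at 10.61 in OVCAR5, 11.01 in HCT116 and 10.33 in COLO205.

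ID1 and ID2 levels did not pass between the lines, with limma adjusted p of 0.511 at a difference of 0.13 (SE 0.15) and of 0.866 at -0.09 (SE 0.38). The ID2 mean of OVCAR5 joined a high vehicle and a low imetelstat array. Among vehicle arrays alone ID2 was 1.06 higher on the log2 scale in OVCAR5 than in the colon lines, and among imetelstat arrays alone the difference was -1.25. SMAD7 at -0.22 (SE 0.13) and SMAD9 at 0.15 (SE 0.14) did not pass either. In all 4 of 8 genes passed, ID3 among them, beside 46.8% of all genes, a share near that background. Of these 1 was higher in OVCAR5, beside 22% of all genes, and 3 were lower, beside 24.8%. Between HCT116 and COLO205 0 of the 8 passed, with a smallest adjusted p of 0.317 in limma for BMP4, beside 1.01% of all genes.

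**Figure D4:**
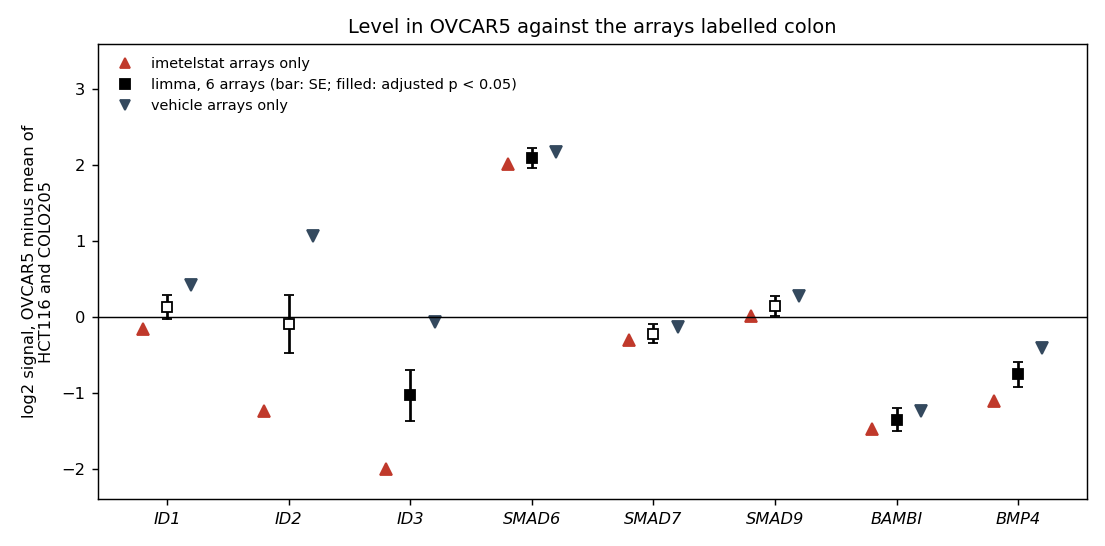
Log2 difference in signal, OVCAR5 minus the mean of HCT116 and COLO205 (y axis), for each gene (x axis), from imetelstat arrays alone, from limma over 6 arrays with its standard error (filled where the adjusted p is below 0.05) and from vehicle arrays alone. SMAD6 and BAMBI keep their place in all 3, while ID2 is at -1.25 on imetelstat arrays and at 1.06 on vehicle arrays.

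The other genes of the pathway did not share the size of the ID2 and ID3 differences. Since ID2 and ID3 were chosen with their large OVCAR5 differences known, this contrast in size carries no test. Of 95 listed genes, which were ligands, the protease BMP1, receptors, inhibitors, SMADs, SMAD regulators, further targets and ID partners, 48 were measured in OVCAR5. Of these 24 were lower with imetelstat, beside 50.8% of all genes in that line, and 23 higher. The 44 detected on both OVCAR5 arrays had differences of -0.75 to 0.45, none at least 2-fold, and for the 4 detected on 1 of them only a bound can be given. In HCT116 22 of 51 were lower, beside 49% of all genes, and 29 higher. In COLO205 23 of 50 were lower, beside 51.1%, and 27 higher. Values of the listed genes are given on the quantile scale only. The median of all COLO205 genes was -0.26 with median scaling and -0.31 with no scaling, so COLO205 signs near 0 rest on the scale. The single gene with a measured difference beyond 2-fold was SMAD3, a receptor-regulated SMAD of the TGF-beta branch, which had 9.43 with imetelstat and 10.51 with vehicle in HCT116, a difference of -1.08. SMAD3 was at -0.40 in COLO205 and at 0.31 in OVCAR5.

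Among 7 other BMP targets measured in OVCAR5 4 were lower and 3 higher with imetelstat, beside 50.8% of all genes below 0. ATOH8, a basic helix-loop-helix factor induced by BMP in endothelium and liver, had 6.99 with imetelstat, where it was not detected, and 7.71 with vehicle in OVCAR5, at least 1.58-fold lower with imetelstat. GATA2, a zinc finger factor of blood and endothelial development, had 7.23 with imetelstat and 7.92 with vehicle. MSX2 was at -0.42 in OVCAR5 and MSX1, a related homeobox factor, at 0.45. These targets ran in both directions, and GATA2 at -0.69 had the lowest difference of those detected on both arrays.

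Of the genes listed as ligands 3 were measured in OVCAR5. BMP1, which despite its name is a protease and not a BMP ligand, was at 0.25. BMP8B was at -0.03, and BMP2, not detected with vehicle, was at least 1.05-fold higher with imetelstat. BMP4, at -0.65, had the lowest difference of these genes there. Of 6 receptors 4 were lower and 2 higher, and ACVR1, a BMP type I receptor, was at 0.32 in OVCAR5, -0.22 in HCT116 and -0.53 in COLO205. Of 5 extracellular inhibitors 3 were lower and 2 higher. FST, or follistatin, which binds activins and some BMPs, had 7.58 with imetelstat and 6.68 with vehicle in OVCAR5, where vehicle was not detected, so that it was at least 1.49-fold higher with imetelstat. Of 9 SMAD regulators 7 were lower in OVCAR5, with a median of -0.30. By their detected probes CTDSP1 gave -0.39 and -0.05 in OVCAR5, and PPM1A 0.16, 0.07, -0.13 and -0.20. The count and the median therefore depend on the probe in OVCAR5. CTDSPL, a small phosphatase whose family removes phosphates from SMADs, had 9.84 with imetelstat and 10.59 with vehicle there, and its relative CTDSP2 was at -0.40. In HCT116 3 of 10 such regulators were lower, with a median of 0.05, and in COLO205 6 of 10, with a median of -0.09. Over all genes 50.8% were below 0 in OVCAR5, 49% in HCT116 and 51.1% in COLO205.

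Of the partners of ID proteins and related basic helix-loop-helix factors 2 of 7 were lower in OVCAR5, beside 50.8% of all genes, and 5 higher. Their median there was 0.14. HES6, which counters HES1, was higher with imetelstat in each line, by 0.42 in HCT116, 0.37 in COLO205 and 0.37 in OVCAR5. MYC was at -0.66 in OVCAR5, -0.51 in HCT116 and 0.49 in COLO205, and its other probe gave -0.56, -0.75 and 0.08 in the same order. The cell cycle inhibitors that ID proteins are known to restrain had a median of 0.07 over 3 genes in OVCAR5, and CDKN1A, which encodes p21, was at 0.07. The median was 0.25 over 4 genes in HCT116 and 0.11 over 4 in COLO205. CDKN1B gave -0.08 and 0.39 by its 2 probes in OVCAR5, so the median there depends on the probe. Of the TGF-beta targets 4 of 4 were below 0 in HCT116, beside 49% of all genes. In COLO205 0 of 5 were, beside 51.1%, and in OVCAR5 1 of 5, beside 50.8%. CCN2, a matricellular protein, gave opposite signs by its 2 probes in HCT116, at -0.51 and 0.09, and in COLO205, at 0.36 and -0.13, so these counts depend on the probe.

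**Figure D5:**
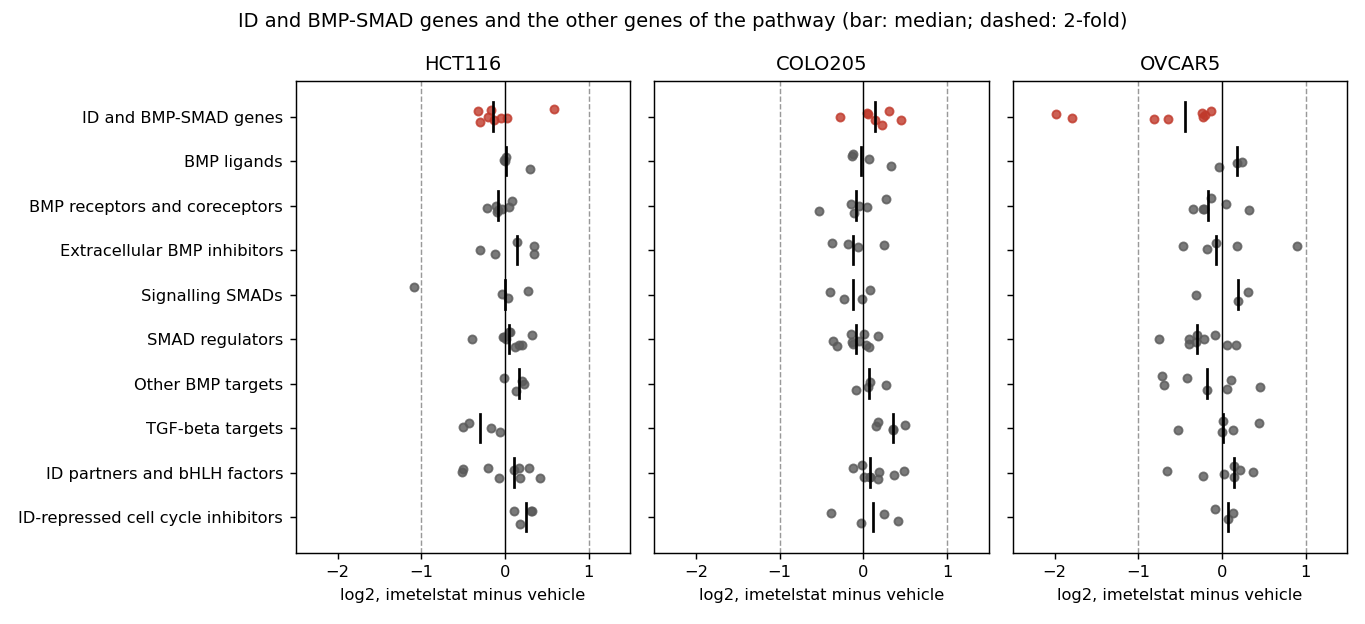
Log2 difference between the imetelstat and the vehicle array (x axis) for the listed genes measured in each line, by role (y axis), with 1 point per gene, a bar at the median and dashed lines at 2-fold. In OVCAR5 ID3 and ID2 are the only points beyond 2-fold, some dim genes being bounds only, and in HCT116 SMAD3 at -1.08 is the only one.

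Genes outside the group were ranked by the distance of their 3 log2 differences from those of an ID gene, among 9266 genes detected in each line. Nearest to ID1 were STEAP2, a metalloreductase, at a distance of 0.10, the homeobox factor CUX1 at 0.19 and the intestinal homeobox factor CDX2 at 0.22. CDX2 was at -0.93 in OVCAR5, -0.05 in HCT116 and -0.15 in COLO205. Nearest to ID3 were FZD7, a Wnt receptor, at a distance of 0.56, the chemokine PPBP at 0.62 and the glucose transporter SLC2A3 at 0.78. FZD7 was at -1.45 in OVCAR5, -0.29 in HCT116 and 0.04 in COLO205. Within the group ID2 and ID3 were 0.93 apart and ID1 and BMP4 0.47 apart. These distances rest on 3 pairs of arrays and describe them only.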

How the data were processed

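The authors deposited linear signal intensities, GenomeStudio averages over the beads of a probe, with no background subtraction and no scaling between arrays. With them they deposited a detection p-value per probe and array, taken against negative control beads. The authors' processed intensities are quantile-normalized on a linear scale, although the methods describe log2 values, and served as an alternative. No genome build is given in the sources used here. After log2 the signals of the 6 arrays were quantile-normalized with limma 3.58.1 in R 4.3.3. Of 47231 probes 30113 had 1 symbol, 8 several and 17110 none, and symbols were updated through RefSeq gene identifiers for 30074. A probe was detected at a detection p below 0.01, and the brightest of the 21099 detected probes stood for its gene. With 1 array against 1 array in a line, a 2-fold difference in size was the call. Across arrays limma's lmFit and eBayes were used with Benjamini-Hochberg adjustment over all genes at 0.05. Precision is limited by having 6 arrays.

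The genes, the pathway lists, the markers and the tests were chosen with earlier results of these data known. Named were all 9 genes, the 3 genes nearest to ID1 and to ID3 in their log2 differences, and up to 4 genes with the largest difference in each pathway list, besides any at least 2-fold changed. SMAD4, SMAD1, SMAD5, TCF3 and HES1 were named outside this rule. All 6 arrays lay on 1 BeadChip, so no batch was fitted. A planned 4-array fit of HCT116 and COLO205 is not reported for the 9 genes, whose differences in those lines were known too. The fits were tested on simulated data. Their noise was independent and drawn from the spread that the fit itself assumes, with line differences, if any, only in the changed genes. There the 6-array fits kept false calls near the nominal level. The 4-array fit, with 1 residual degree of freedom, made more false calls than its adjusted p states. Its calls over all genes can hold more false ones. The real arrays differ between lines in many more genes, so the simulation cannot vouch for their p-values. A first form of this check pooled the fits and passed, and it was then split by fit, with the limit kept for the 6-array fits only. Promoters are from RefSeq on GRCh38.p14, and windows were found for all 9 genes. Alternatives were no scaling or scaling by the median, normexp with an added 16, signals with 32 added, the authors' processed values, other detection filters, the mean of probes, limits of 1.5-fold and 3-fold, leaving out arrays or lines, other models and a variance trend. The dimmer probes of ID1 and ID2 and the comparison of HCT116 with COLO205 were chosen after seeing the data. Sequences and plots were made with Python 3.11.15, numpy 2.4.6, pandas 2.3.3 and matplotlib 3.10.9.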

Additional observations from a re-analysis of the deposited data

Results flagged for a closer look

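For ID2 the imetelstat minus vehicle log2 difference was negative in OVCAR5 and positive in HCT116 and COLO205. The OVCAR5 value was below that of HCT116 by a difference of -2.38 and below that of COLO205 by a difference of -2.24, on the brighter probe. For ID3 the sign was opposite in OVCAR5 and COLO205, with a difference of -2.20 between these lines. Each line had 1 array per agent, so these differences between lines were not tested. The signs of ID2 with its dimmer probe and of ID3 under other scalings were not the same in COLO205.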

How the results depend on the processing

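The signs of ID1, ID2 and ID3 in OVCAR5 held under every alternative run, with log2 differences of -0.86 to -0.69, -2.04 to -1.44 and -2.26 to -1.89. The detection filters left these values unchanged, as did the mean of probes for ID3, which has 1 probe. The -1.44 was that of the dimmer ID2 probe and is short of 3-fold. At 1.5-fold 4 genes were lower with imetelstat in OVCAR5 and 1 was higher in HCT116, and at 3-fold 2 were lower in OVCAR5. With normexp 3 were at least 2-fold lower in OVCAR5, with BMP4 at -1.39. In COLO205 6 of 7 genes were below 0 with median scaling and 6 with no scaling, where the median of all genes is also below 0. ID3, SMAD6, SMAD7, BAMBI and BMP4 were then negative in COLO205, and ID1 was at -0.74 and -0.78. Without the OVCAR5 imetelstat array the ID2 level was higher in OVCAR5 than in the colon lines by 1.06. Without the OVCAR5 vehicle array the ID2 difference was -1.25. Each of these leaves 1 OVCAR5 array, whose ID2 value was known when the genes were chosen, so no test is drawn from them. The ID3 level did not pass without the OVCAR5 imetelstat array, where it was -0.06. Nor did it under normexp (-1.18), no agent term (-1.04), median or no scaling (-0.91 each), without HCT116 (-0.83), or without the imetelstat array of HCT116 (-0.89) or COLO205 (-0.69). Where not stated, the cause was not tested. ID1 passed with the mean of probes at 0.42 and SMAD7 without COLO205 at -0.39. The count of passing levels stayed between 3 and 5, with SMAD6 at 1.98 to 2.48 and BAMBI at -1.68 to -1.21. Across lines 3 genes passed without COLO205 and 13 without OVCAR5. Both are 4-array fits with 1 residual degree of freedom, whose calls can hold more false ones than the adjusted p states. The count without OVCAR5 ran from 0 to 62 over further alternatives. No paired analysis by replicate number was possible because each group has 1 array, and pairing was by cell line. SMAD7 and SMAD9 were not detected on the OVCAR5 imetelstat array, which leaves bounds there, and ID4 was detected nowhere.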
